A study of Mus musculus with 12 samples.

Results

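The peaks described here are the intergenic binding sites of RNA polymerase II in mouse microglia that carry no called H3K27ac peak. A member was a peak of the Rpb2 table that was annotated as intergenic, lay more than 2000 bp from a transcription start site (TSS), held no LTR repeat in its detailed annotation, and overlapped no H3K27ac peak by coordinates. Members were thus chosen by the called peaks of both marks, with no threshold on a read count or on a difference between genotypes. The peaks were called in each genotype from these same reads, however. The KO list alone gave 819 members and the WT list alone 326, so the choice is not independent of genotype. Of 26706 Rpb2 peaks, 4843 were intergenic, 4525 of these lay beyond 2000 bp, 4112 of those held no LTR, and 1283 were members (4.8% of all Rpb2 peaks). The 2829 peaks that met every other criterion but overlapped an H3K27ac peak are called acetylated intergenic peaks and serve for comparison. Microglia were sorted as CD11b+ CD45lo cells from 2-mo-old mice on the C57BL/6J background. WT mice carried both intact copies of *Cx3cr1*, the fractalkine receptor of microglia, and their *Cx3cr1*-KO littermates carried an eGFP insertion in both, in every cell and from the germline on. Each library came from the pooled microglia of 3 mice of 1 sex, and every genotype had a pool labelled female and a pool labelled male, so the spread of a group rests on n = 2 pools. There were 4 Rpb2 and 4 H3K27ac libraries, and the 4 input libraries were not used here.

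Rpb2 is the second largest subunit of RNA polymerase II, so its ChIP-seq reads mark where the enzyme sits on DNA, whether it is starting, elongating, paused or about to leave. Polymerase does not stop at the polyadenylation site: it transcribes on into the flanking DNA while the RNA is cleaved and slows there until termination releases it. It also transcribes active enhancers, which, like active promoters, usually carry acetylation of histone H3 at lysine 27 (H3K27ac). ChIP-seq reads have no strand that tells the direction of transcription, so a peak between 2 genes cannot be given to one of them by its reads.

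The members lay mostly just past the ends of genes. In the GENCODE vM21 annotation, 894 of 1283 (69.7%) lay within 10 kb past the 3′ end of a protein-coding gene and inside no other gene, against 565 of 2829 acetylated intergenic peaks (20.0%). Another 148 members (11.5%) lay inside a protein-coding gene of that annotation, whose transcripts reach further than those of the authors' annotation, against 289 acetylated peaks (10.2%). Only 99 members (7.72%) lay more than 10 kb from any protein-coding gene and inside no noncoding one, where 1144 of the acetylated peaks lay (40.4%). The remaining members were inside a noncoding gene or pseudogene (85, 6.63%) or within 10 kb upstream of a 5′ end (57, 4.44%). A related view comes from the orientation of the flanking genes: 476 members (37.1%) lay between convergent genes, which share the space beyond their 3′ ends, and 88 (6.9%) between divergent genes, against 20.7% and 26.1% of the acetylated peaks. Absence of H3K27ac was the criterion that separated these 2 sets, so the difference in place is given as a description without a test.

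**Figure D1:**
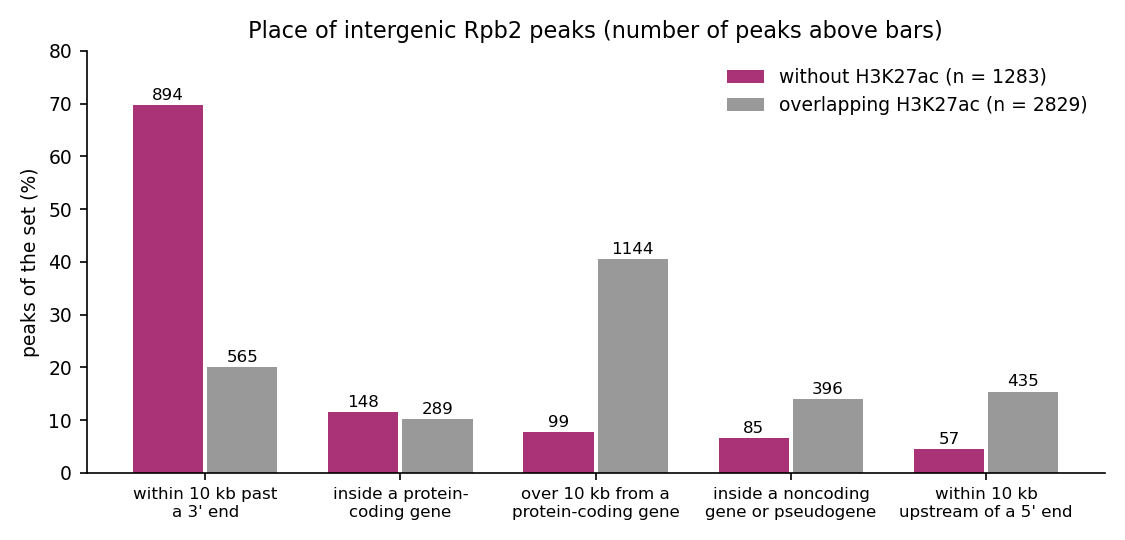
Bars give the share of peaks (%, y axis) in each place relative to GENCODE vM21 genes (x axis) for the 1283 intergenic Rpb2 peaks without H3K27ac and the 2829 that overlap an H3K27ac peak, with the number of peaks above each bar. Of the peaks without H3K27ac 69.7% lie within 10 kb past a 3′ end, and 40.4% of the acetylated ones lie over 10 kb from a protein-coding gene.

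The 5 members with the highest level that lie near different genes are shown first by their sequence, because they held the most reads after normalization. Each line gives the central 200 bp of the peak on the plus strand of GRCm38 (mm10), and capitals mark matches to the motifs described below.
*Tgfbr1*, chr4:47416920-47417119: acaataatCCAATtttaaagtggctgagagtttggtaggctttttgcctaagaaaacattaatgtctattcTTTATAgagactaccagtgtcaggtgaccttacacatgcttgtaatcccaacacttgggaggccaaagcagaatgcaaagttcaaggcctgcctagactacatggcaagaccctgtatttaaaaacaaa
*C1qb*, chr4:136878202-136878401: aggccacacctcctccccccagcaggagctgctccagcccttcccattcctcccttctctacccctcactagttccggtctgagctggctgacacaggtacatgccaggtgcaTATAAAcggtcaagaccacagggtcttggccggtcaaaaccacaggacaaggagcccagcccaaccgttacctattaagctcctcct
*P2ry6*, chr7:100935352-100935551: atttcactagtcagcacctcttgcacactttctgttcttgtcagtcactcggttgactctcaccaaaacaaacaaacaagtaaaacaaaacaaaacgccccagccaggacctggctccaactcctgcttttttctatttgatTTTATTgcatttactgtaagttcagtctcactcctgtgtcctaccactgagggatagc
*Trcg1* and *1700017B05Rik*, chr9:57251111-57251310: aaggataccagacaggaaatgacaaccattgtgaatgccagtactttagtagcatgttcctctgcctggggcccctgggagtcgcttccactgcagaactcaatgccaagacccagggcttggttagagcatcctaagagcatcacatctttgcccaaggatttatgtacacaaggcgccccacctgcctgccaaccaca
*Picalm*, chr7:90213060-90213259: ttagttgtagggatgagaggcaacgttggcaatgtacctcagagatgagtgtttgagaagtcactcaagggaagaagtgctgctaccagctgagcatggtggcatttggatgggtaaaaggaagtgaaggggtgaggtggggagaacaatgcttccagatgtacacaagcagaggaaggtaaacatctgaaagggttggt
These windows hold from 0 to 4 CpG dinucleotides and from 39.5% to 58.0% G and C. The motifs they hold are a TATA box and a CCAAT box past *Tgfbr1*, a TATA box past *C1qb* and a polyadenylation signal past *P2ry6*, while the windows at *Trcg1* and at *Picalm* hold none of those searched.

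Over all members, the sequence under the peak was close to that of the surrounding DNA. The median share of G and C was 47.0% in the 1283 members, 45.5% in windows 2 kb to either side, 52.0% in acetylated intergenic peaks and 65.0% in peaks within 1000 bp of a TSS. Members without any CpG made up 20.0%, against 20.6% of the flanking windows and 5.94% of the acetylated peaks. The core site of PU.1 (GAGGAAGT on either strand), a transcription factor that binds many microglial enhancers, was in 1.33% of members, 1.79% of flanking windows and 7.32% of acetylated peaks. The polyadenylation signal AATAAA was in 18.2% of members and 23.1% of flanks, against 9.12% of acetylated and 3.88% of promoter peaks. TATAAA was in 10.1% of members and 14.6% of flanks, and CCAAT in 23.9% and 24.3%. The AP-1 site TGANTCA was in 6.00% of members, 5.50% of flanks and 6.50% of acetylated peaks. The NRF1 site was in 0 members and in 5.62% of promoter peaks. A match is a run of letters and not a measured binding site.

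Repeats were annotated at the centre of some members. SINE elements, short mobile elements that are themselves copied by RNA polymerase III, were named at 212 members (16.5%) and at 4.63% of acetylated intergenic peaks. LINE elements were named at 116 members (9.04%) and at 3.85% of acetylated peaks. A CpG island was named at 1 member against 248 acetylated peaks. No repeat was named at 897 members. The authors kept uniquely mapped reads, so counts in repeats are of those reads that could be placed.

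Where the rule has thresholds, members stood close to them on both sides. The member nearest to a TSS was at 2001 bp and the farthest intergenic peak left out by this criterion was at 1999 bp. The smallest gap between a member and an H3K27ac peak was 8 bp, and the smallest overlap of an acetylated peak was 6 bp. The median gap of members was 4673 bp, 227 (17.7%) had an H3K27ac peak within 1000 bp, and 386 (30.1%) had none within 10 kb. The median Rpb2 level was 6.47 RPKM (the reads in a peak divided by its width in kb and by the total of the library in units of 1000000 reads) for the first of these groups and 5.29 for the second.

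The levels of members were low but above an even spread of reads. A library whose reads fell evenly over the genome would give 0.367 RPKM, and the median member stood at 5.11 in the library labelled WT female, 4.86 in WT male, 6.19 in KO female and 7.40 in KO male. Medians of acetylated intergenic peaks were from 10.7 to 15.1 in the 4 libraries and those of promoter peaks from 18.4 to 22.96. In reads, the median member had 18 in the library labelled WT female, 20 in WT male, 80 in KO female and 36 in KO male. At a median peak width of 298 bp, an even spread would give from 1.28 to 4.85 reads. Peaks were called for standing above their surroundings, so these levels describe the members and are no test.

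Totals of the 4 Rpb2 libraries ran from 11662185 to 44332626 reads, and the KO female library was the deepest. All 10 microglial markers, among them *P2ry12* and *Tmem119*, had an Rpb2 peak within 1000 bp of a TSS, with a median of 127.6 CPM (reads per 1000000 reads in peaks, after TMM normalization). None of 3 neuronal and none of 5 blood and border myeloid markers had one, and 1 of 3 had one for astrocytes (*Slc1a3*), oligodendrocytes (*Mbp*) and endothelium (*Pecam1*), each under 45 CPM. Summed over the promoter peaks of *Mbp*, CPM was 84.0 in the library labelled WT female and from 16.0 to 35.3 in the other 3. In the 3 peaks on the Y chromosome there were 136 reads in the library labelled WT female, 214 in WT male, 266 in KO male and 0 in KO female. The label of the first is therefore used as given but not relied on. Of the H3K27ac libraries, that labelled WT female had 15.9% of its reads in H3K27ac peaks and the other 3 had from 61.1% to 65.3%, so the acetylation calls that set the members rest on WT samples of unequal enrichment.

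Past 3′ ends, members thinned out with distance. There were 356 members from 1 to 2 kb past the nearest 3′ end, 200 from 2 to 3 kb, 181 from 3 to 5 kb, 78 from 5 to 7.5 kb and 37 from 7.5 to 10 kb. Per kb of distance, this is a fall from 356 to 14.8, against a fall from 168 to 18.8 for acetylated peaks. Another 42 members lay within 1 kb, a stretch that the authors' annotation counts mostly as the end of the gene and not as intergenic. The median RPKM in KO male was 7.33 from 1 to 2 kb and 6.00 from 7.5 to 10 kb, in KO female 6.27 and 5.37, in WT male 5.42 and 3.84, and in the library labelled WT female 5.51 and 3.89. All 4 libraries were lower in the farthest bin than in the nearest, and the KO libraries lay above the WT libraries in every bin on this scale of total reads, on which the fitted median of all Rpb2 peaks was also higher in KO (log2 fold change 0.37, against 0.04 after TMM). The last bin holds 37 peaks.

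**Figure D2:**
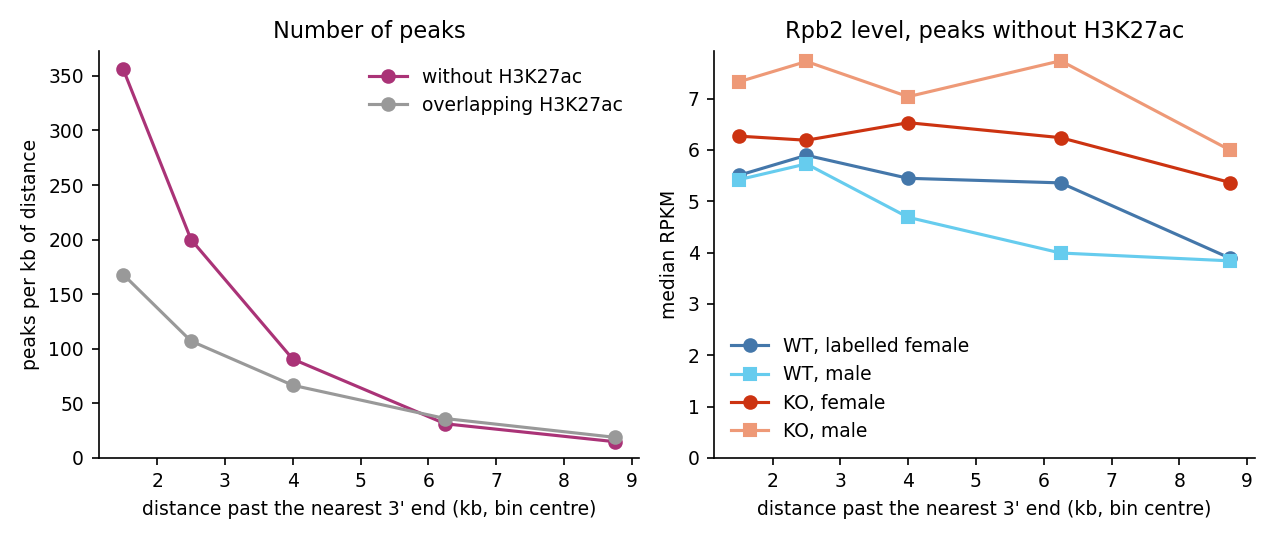
Left, number of intergenic Rpb2 peaks per kb (y axis) by distance past the nearest 3′ end (x axis, kb, centres of bins), without H3K27ac and overlapping it. Right, median RPKM (y axis) of the peaks without H3K27ac in the same bins for each of the 4 libraries; the number of peaks falls from 356 to 14.8 per kb, and both KO libraries lie above both WT libraries.

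The genes whose ends these members follow were mostly genes with polymerase at their start. The 894 members lay past the ends of 599 genes, and 512 of these genes (85.5%) had an Rpb2 peak within 1000 bp of a TSS. Of all 21992 protein-coding gene names, 7821 (35.6%) had one. The acetylated intergenic peaks past a 3′ end largely shared this trait. Counted by peak, 73.45% of them followed a gene with a promoter peak, against 86.13% of the members past a 3′ end. The median level of the highest promoter peak was 74.7 CPM for genes with a member past their end and 45.6 CPM over all genes with a promoter peak. For 179 of the 894 members (20.0%) the 3′ ends of 2 facing genes lay within 10 kb, and the gene they follow cannot be told apart. The gene named by the authors for its nearest TSS was another than the one whose 3′ end lay nearest at 536 of the 894.

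Among the members of highest level, 4 of the 5 lay past a 3′ end. The gap to the nearest H3K27ac peak was 7237 bp at *Tgfbr1*, 464 bp at *C1qb* and 4809 bp at *P2ry6*. It was 94 bp at *Trcg1* and 313 bp at *Picalm*. *Tgfbr1*, whose receptor for TGF-β is needed for the microglial identity, was followed at 2089 bp by a member with 320 reads in the library labelled WT female, 297 in WT male, 1402 in KO female and 623 in KO male. After normalization this was 222 ± 37.7 CPM in WT and 249 ± 8.43 CPM in KO (SD, n = 2), and the pools overlapped. In RPKM they did not, with 58.8 and 46.6 in WT and 67.7 and 80.7 in KO. *Tgfbr1* had 3 other members at its 3′ side, at 1231, 4228 and 4506 bp. The member 1827 bp past the end of *C1qb*, which encodes a chain of the complement protein C1q, held 252, 246, 777 and 334 reads in the same order of libraries. WT pools (179 ± 24.0 CPM) stood above KO pools (136 ± 7.78 CPM) without overlap, and the difference did not pass the test (log2 fold change −0.40, SE 0.23, edgeR adjusted p = 0.511). Per kb it was the densest of the 5, with 80.1 to 96.0 RPKM in WT and 77.9 to 89.8 in KO, a scale on which the pools overlap.

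The member 2178 bp past *P2ry6*, the UDP receptor that triggers phagocytosis by microglia, held 152, 210, 704 and 337 reads, and that between the facing ends of *Trcg1* and *1700017B05Rik* held 145, 213, 694 and 322. At each of the 2 sites the 4 pools overlapped in CPM, and the fitted log2 fold changes were 0.02 (SE 0.24) and −0.01 (SE 0.25). The member inside *Picalm*, which encodes a clathrin assembly protein, held 142, 166, 761 and 209 reads. The KO pools differed more from each other (138 and 81.5 CPM) than the WT pools did (110 and 109 CPM). In RPKM, which is not adjusted by TMM, both KO pools were above both WT pools at *P2ry6*, *Trcg1* and *Picalm*.

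**Figure D3:**
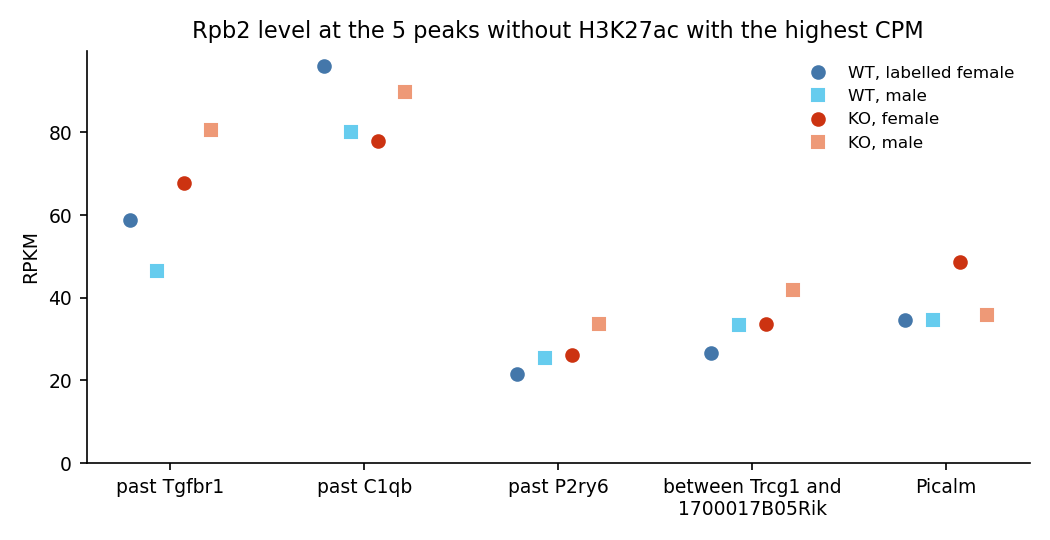
Rpb2 level (y axis, RPKM) at the 5 peaks without H3K27ac with the highest mean CPM, 1 per nearest gene (x axis), with 1 point per library. The peak past C1qb is the densest in all 4 libraries (77.9 to 96.0), and the peak past Tgfbr1 is next. Except at C1qb, both KO libraries lie above both WT libraries on this scale, while in CPM the pools overlap at these sites.

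Members came in runs. Taking neighbours under 10 kb apart together, the 1283 members formed 758 runs, of which 496 were single peaks. The other 262 runs held 787 members (61.3%), and 30 runs held 5 or more. The 5 longest by number of members show several kinds of place.

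The longest run held 17 members over 19.4 kb (chr7:3986640-4006044), of which 10 lay past the 3′ end of *Lair1*, which encodes an inhibitory collagen receptor of leukocytes. Summed over its peaks there were 530 reads in the library labelled WT female, 586 in WT male, 3170 in KO female and 931 in KO male, or 412, 386, 576 and 363 CPM. KO female stood highest and KO male lowest. Most of these peaks lay in LINE elements, and the run is next to a family of similar receptor genes, so its counts are uncertain wherever copies are near-identical.

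At *Qk*, which encodes an RNA-binding protein of the STAR family, 8 members spanned 7.37 kb from 2231 to 9231 bp past the 3′ end. Together they held 665, 744, 3126 and 1272 reads, or 517, 490, 568 and 496 CPM, the highest sum of the 5 runs, and the pools overlapped. The mean level over the 4 libraries was 26.5 RPKM at the first peak, 35.4 at 4102 bp and 16.0 at 9231 bp. The member at 6649 bp held 111, 100, 624 and 308 reads, the KO pools above the WT pools (log2 fold change 0.62, SE 0.28, edgeR adjusted p = 0.397), and on the CPM scale the pools overlapped at the members on either side, at 4102 and 7033 bp, while in RPKM both KO pools were above both WT pools there too.

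**Figure D4:**
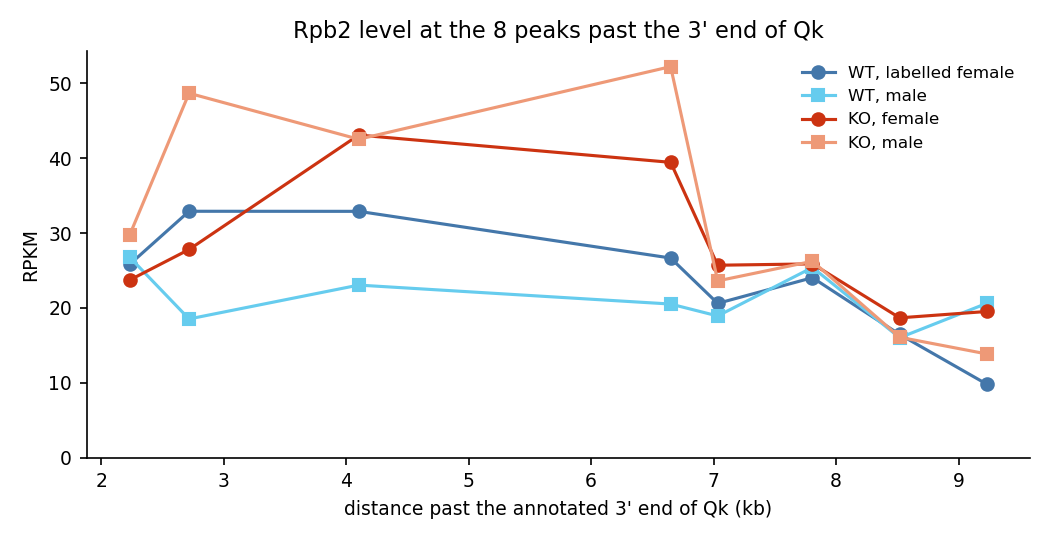
Rpb2 level (y axis, RPKM) at the 8 peaks without H3K27ac past the 3′ end of Qk against distance from that end (x axis, kb), with 1 line per library. Levels lie between 9.82 and 52.2, and all 4 libraries are lower at 8519 bp than at 6649 bp.

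The 10 members nearest to *Dleu2*, a long noncoding RNA that hosts microRNAs, lay over 17.1 kb, all more than 10 kb from any protein-coding gene. Their distance to the *Dleu2* TSS was from −127500 to −144300 bp. The smallest gaps to an H3K27ac peak were 49, 196, 291, 321 and 396 bp, so acetylated DNA lay next to this run. The 10 members held 174, 263, 654 and 356 reads, or 135, 173, 119 and 139 CPM. The 9 members between the facing ends of *Cdc42*, a small GTPase that organizes actin, and *Wnt4*, a secreted ligand, held 132 and 141 CPM in WT and 117 and 95.2 CPM in KO. In summed CPM both KO pools were below both WT pools, and the sums per total reads of a library are not given. Single members of this run ran from a log2 fold change of −2.45 to 5.09, and the lowest edgeR adjusted p was 0.198. The 8 members between *Arrb1*, which encodes a β-arrestin, and *Tpbgl* held 60.7 and 56.6 CPM in WT and 108 and 126 CPM in KO. All 8 had a positive log2 fold change, from 0.17 to 2.66, none passed the test (lowest edgeR adjusted p = 0.260), and all 8 came from the KO list of peaks alone.

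Genes of the homeostatic microglial state were among those with members. Of 32 such genes, 9 (28.1%) had at least 1 member as nearest gene or past their 3′ end, against 9.54% of all protein-coding genes with a promoter peak and 4.58% of all protein-coding genes. These shares were not matched for the level of polymerase. The median promoter level was 74.7 CPM for genes with a member past their end, against 45.6 CPM for all with a promoter peak. Its part in the 28.1% was not tested. Among the 9 were *C1qb*, *Cst3*, *Mef2c*, *Olfml3*, *Runx1*, *Sall1*, *Tgfbr1* and *Trem2*, and the 9 genes had 27 members in all. None of the 27 passed the test, 3 had an unadjusted p under 0.05 (11.1%, against 12.2% of all peaks), and their median log2 fold change was 0.17 against 0.28 over all members. *Mef2c*, a transcription factor of microglia and neurons, had 7 members from 1184 to 8018 bp past its end, with 130, 257, 756 and 298 reads in sum. *Sall1*, the transcription factor that defines microglia among macrophages, had 6 members more than 10 kb from any protein-coding gene, with 40, 75, 487 and 276 reads in sum. All 6 had positive log2 fold changes (median 1.26), none passed the test, and all 6 came from the KO list of peaks alone. At *Olfml3*, a secreted protein of microglia, the higher of 2 members held 42, 62, 348 and 145 reads and the other 48, 83, 114 and 9, with log2 fold changes of 0.70 and −1.87, neither of which passed the test. Of 22 immediate early genes, *Ier2* alone had a member, as nearest gene, with 21, 33, 85 and 42 reads. This peak lay inside the noncoding gene *Gm26664*, 6086 bp upstream of *Ier2* and 1545 bp past the 3′ end of *Nacc1*. None of 7 neuronal, 6 astrocytic, 7 oligodendrocytic, 6 endothelial and 8 blood and border myeloid genes, and none of 16 noncoding RNA genes, had one.

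The genotype comparison asked whether polymerase at these sites differed between *Cx3cr1*-KO and WT microglia. In sorted bulk cells, more polymerase per cell and more cells with polymerase at a site cannot be told apart. No member passed an adjusted p of 0.05 in edgeR's quasi-likelihood test, against 2 of all 26706 peaks (0.00749%), and the lowest adjusted p of a member was 0.198. In simulated data the same fit recovered 45% of peaks with a 4-fold change, so the absence of calls does not show that polymerase was unchanged. At an unadjusted p under 0.05 there were 218 members (17.0%, against 12.2% of all peaks), 129 higher in KO (6.12% of all peaks were) and 89 lower (6.06% of all). This balance moved with the setting: it was 202 higher and 44 lower with total reads per library, and 24 and 80 with at least 10 reads in every library. The shares of all peaks at these settings are not given, so these counts do not set members apart from other peaks. The median log2 fold change of all peaks was 0.37 in the first setting and 0.0153 in the second. Other methods did call members: DESeq2 called 77, which is 6.00% of members where it called 3.83% of all peaks, 42 of them higher and 35 lower in KO. The newer quasi-likelihood method of edgeR called 19, which is 1.48% of members against 1.02% of all peaks, 6 of them higher and 13 lower. Leaving out peaks with 0 reads in one pool and at least 10 in its partner, a choice made after seeing the data, gave 21 called members (1.72% of those left, against 0.975% of all peaks left). With at least 10 reads in every library 1 of 677 members was called (0.148%, against 0.151% of all peaks tested). Without WT replicate 1, the library labelled female, 168 members were called (13.1% of members, against 8.28% of all peaks), and without WT replicate 2, the male, 180 (14.03% of members, against 7.35% of all peaks). Peaks with 0 reads in one pool and at least 10 in its partner made up 59 members (4.6%) and 2.82% of all peaks.

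Both KO pools stood above both WT pools at 448 members (34.9%, against 25.7% of all peaks) and below them at 279 (21.7%, against 21.7%). The median log2 fold change was 0.28 in members, 0.03 in acetylated intergenic peaks, −0.11 in promoter peaks and 0.04 in all peaks. It was 0.30 in the pair labelled female and 0.25 in the male pair, each on a log2 scale with 1 CPM added. Among the 677 members with at least 10 reads in every library the median was −0.09. That filter is not independent of the difference, since 395 and 372 members had under 10 reads in the 2 WT libraries and 14 and 64 in the KO libraries.

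This median moved with the list in which a peak had been called. The peak came from the KO list alone at 819 members, from the WT list alone at 326 and from both at 138, and the median log2 fold changes of these were 0.86, −1.06 and −0.14. Over all peaks the shares were 53.0% KO alone, 13.7% WT alone and 33.3% both, against 63.8%, 25.4% and 10.8% of members. The lists were made from the same libraries, so the fold changes by list are a description of how the peaks were called. Their part in the median, and that of the depth of the KO female library, was not tested.

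**Figure D5:**
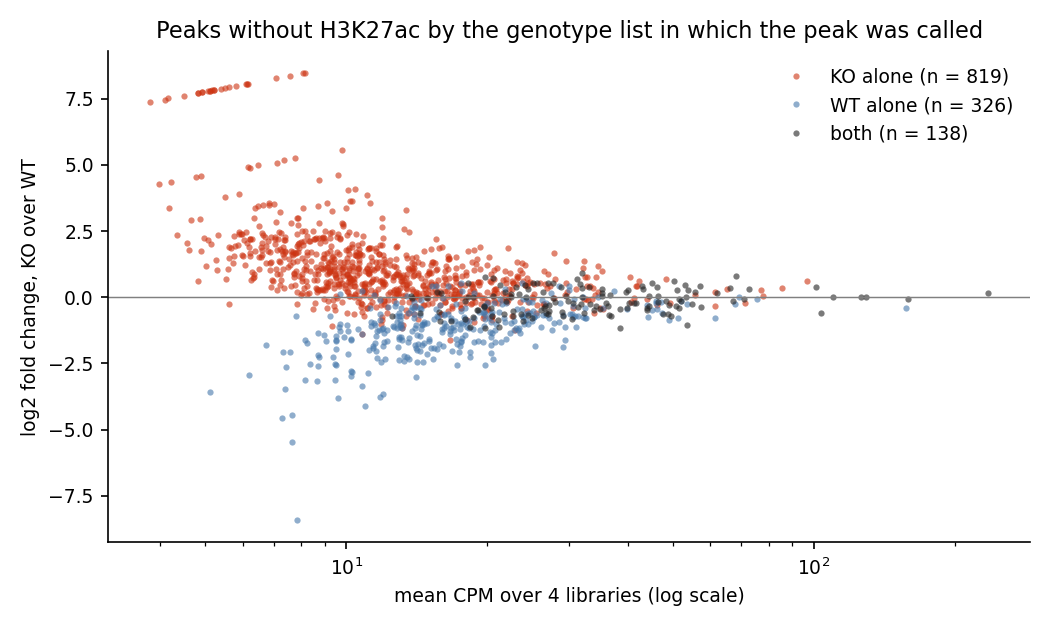
Fitted log2 fold change of KO over WT (y axis) against mean CPM over the 4 libraries (x axis, log scale) for the 1283 intergenic Rpb2 peaks without H3K27ac, coloured by the genotype list in which the peak was called. Medians are 0.86 for KO alone, −1.06 for WT alone and −0.14 for both; the points near the top are peaks with 0 reads in both WT pools, where the fitted value depends on the prior count.

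The share of all reads of a library that fell in members was 0.249% in the library labelled WT female, 0.247% in WT male, 0.303% in KO female and 0.347% in KO male. Both KO pools were above both WT pools (0.325 ± 0.0312% against 0.248 ± 0.00106%, SD, n = 2), and the exact two-sided permutation test gave p = 0.333, the smallest it can give with 2 pools against 2. The share of reads in any peak was also higher in KO (12.2% and 15.1%) than in WT (11.2% and 11.4%). Of the reads in peaks, members took 2.22% and 2.17% in WT and 2.48% and 2.30% in KO.

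The members with the lowest p whose pools did not overlap, none of which passed the test, were peaks of few reads. Higher in KO were a member within the noncoding gene *Gm14488*, with 0 reads in both WT pools and 86 and 43 in KO female and male, and one in *Sema4d*, a semaphorin, with 0, 0, 96 and 33. Each was at least 14.96-fold higher in KO, taking 3 reads over the WT group as the floor. The members past *Ahdc1* (0, 0, 62 and 55 reads) and past *Itpr2* (0, 0, 76 and 37), which encodes a calcium release channel, were at least 13.57-fold and at least 13.1-fold higher. The fifth, between *Prr12* and *Rras*, held 1, 0, 136 and 35 reads. Each of these 5 had an edgeR adjusted p of 0.198, and each came from the KO list of peaks alone.

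Lower in KO was a member over 10 kb from any protein-coding gene and nearest to *Chd7*, a chromatin remodeller, with 15 and 30 reads in WT and 0 in both KO pools, which was at least 43.1-fold lower with 3 reads over the KO group. The member nearest to *Hk2*, the hexokinase that starts glycolysis, held 24, 17, 0 and 2 reads. Past *Slc15a4*, a lysosomal transporter, there were 37, 23, 7 and 5 reads (21.96 ± 9.64 CPM in WT and 1.61 ± 0.479 CPM in KO, log2 fold change −3.77, SE 0.92, edgeR adjusted p = 0.198). Past *Rap1gds1*, an exchange factor of small GTPases, there were 37, 33, 20 and 6 reads, and past *Cd164*, a sialomucin, 16, 24, 5 and 0. Each of the members lower in KO came from the WT list of peaks alone. DESeq2 put all 10 of the members named for low p under its adjusted threshold, with adjusted p from 0.000692 to 0.022. They were picked by low p and pools without overlap in these same libraries. The DESeq2 calls are therefore no separate support, and the fold changes describe the choice.

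At the targeted locus no member lay close by. The nearest members on the 2 sides of the *Cx3cr1* TSS peak were 895 kb away, in *Ulk4* next to *Ctnnb1* (3, 6, 53 and 32 reads), and 6142 kb away, upstream of *Ubp1* (23, 23, 147 and 91 reads). In both the KO pools were above the WT pools, and neither passed the test (edgeR adjusted p = 0.470 and 0.519). Both came from the KO list of peaks alone, and the members of that list had a median log2 fold change of 0.86 over the genome. Within 10 Mb of *Cx3cr1* there were 9 members, with a median log2 fold change of 0.91 and a lowest edgeR adjusted p of 0.308. The part of the peak lists in this median was not tested.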

How the data were processed

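Microglia were assayed by ChIP-seq for Rpb2 and H3K27ac, with 4 libraries per mark. The authors aligned 51-nt reads to mm10 with Bowtie2, retained those that mapped uniquely, and used HOMER to call peaks. They retained peaks reproducible between the pools of a genotype and merged the lists of the genotypes. The deposited values are counts: whole reads per peak and library, not normalized. Chromosome lengths and TSS distances were checked against GRCm38.p6, where 1167 of 1207 distances were within 100 bp.

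All 26706 Rpb2 peaks reached an average of 4 or more reads in WT or KO and entered 1 fit, made in R 4.3.3 with edgeR 4.0.16 (quasi-likelihood F test, TMM factors, genotype alone, Benjamini-Hochberg adjustment over all peaks, threshold 0.05). The H3K27ac table was used for peak positions alone. CPM values are per 1000000 reads in peaks after TMM. RPKM values were computed from the deposited counts, per kb of peak and 1000000 reads of the library. The standard error of a log2 fold change was taken from the F statistic. Shares of library reads were compared by an exact permutation test, whose smallest p with 2 pools against 2 is 0.333. Places came from GENCODE vM21. Motifs were searched on both strands in windows of 200 bp. Python 3.11.15, pandas 2.3.3, NumPy 2.4.6, SciPy 1.17.1 and samtools were used. The fit was tested on data simulated for all 26706 peaks, 200 of them with a 4-fold change. It recovered 90 of these (45%) and made 7 false calls.

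Members and gene lists were chosen with earlier results of these data known. Members named were the 5 with the highest mean CPM (1 per nearest gene), those past the threshold, the 5 with the lowest p in each direction whose pools do not overlap, up to 4 of each gene list with the highest CPM, the 5 runs with the most members, and the members nearest to *Cx3cr1* on each side. Some items are withheld and not reported here. Alternatives were total reads per library, DESeq2 1.42.0, the newer quasi-likelihood method of edgeR, other filters, autosomes, the sex label as a replicate block, each pool left out, and stricter distances. Leaving out peaks at 0 in one pool and at 10 or more in its partner was added after seeing the data. The floor of a group at 0 was 3 reads over the group. The pools of a genotype are separate animals of different sex label, and p-values measure the spread between them alone.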

Additional observations from a re-analysis of the deposited data

Results flagged for a closer look

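The pair of pools labelled female and the male pair moved in opposite directions at 3 of the members with the highest level. The difference between pairs was not tested, since 1 pool per sex and genotype gives no spread. The log2 ratio of KO over WT, with 1 CPM added, was 0.11 in the female pair and −0.07 in the male pair past *P2ry6* (difference 0.19), 0.16 and −0.16 at *Trcg1* and *1700017B05Rik* (difference 0.32), and 0.32 and −0.42 at *Picalm* (difference 0.74). Over all members the pairs moved in opposite directions at 401 of 1283, and the share of all peaks that did so is not given. The female pair holds the library labelled WT female, whose Y-linked reads go against its label.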

How the results depend on the processing

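The count of called members, 0 in the main analysis, was also 0 with total reads per library, autosomes, and the sex label as a replicate block. Dropping the filter left the fit unchanged, since every peak had passed it. The margins of 1000 bp to H3K27ac and 5000 bp to a TSS took members from the main fit. The count of 0 in these was fixed in advance. The count of called members was 77 with DESeq2, 19 with the newer quasi-likelihood method and 1 with at least 10 reads in every library. It was 21 without peaks at 0 in one pool and 10 or more in its partner. With each pool left out in turn it ran from 0 to 180, with 168 without WT replicate 1 (the library labelled female), 180 without WT replicate 2, and 0 without either KO pool. There the lone pool is assumed to vary like the other genotype. The cause was not tested. The median log2 fold change of members, 0.28, turned to −0.094 with at least 10 reads in every library, a filter that mostly removes members with few WT reads, and was 0.36 with the replicate block and 0.60 with total reads per library, which also moved the median of all peaks to 0.37. It ran from 0.19 to 0.30 with each pool left out. The difference in the share of reads, 0.077 percentage points, kept its direction in all alternatives and ran from 0.0549 to 0.0991 with each pool left out. Both KO pools lay above both WT pools, so leaving out a pool could not have reversed it.

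Pools with the same sex label deviated from their group means with a correlation of 0.0316 over members and −0.00797 over all peaks. The label WT female is in doubt, since that library held Y-linked reads. The correlation therefore cannot tell whether pools of the same sex vary together. Under the block, members with an unadjusted p under 0.05 fell from 129 to 80 among those higher in KO and from 89 to 72 among those lower. The shares of all peaks under the block are not given.

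Of 256 repeats for single named members, 196 kept direction and call and 48 became called. The 196 include those with no filter or stricter distances, which reuse the main fit and could not differ. The other 12 changed sign, at members whose main log2 fold change was from −0.01 to 0.02 or, at *Ier2*, −0.26 (SE 0.61). These were past *P2ry6* −0.0020 on autosomes and from −0.11 to 0.14 with each pool left out; at *Trcg1* 0.12 with at least 10 reads, 0.0014 with the block, 0.32 with total reads and from −0.17 to 0.16 with each pool left out; at *Picalm* −0.00094 with DESeq2, −0.0082 on autosomes, −0.044 with the block and from −0.43 to 0.33 with each pool left out; and at *Ier2* 0.070 with total reads.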

Other observations

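A few members lay on genes of noncoding or immune receptor classes, chosen here after their values were seen. There were 3 members within *Ighm*, the constant region of the IgM heavy chain, with 41, 57, 187 and 96 reads at the highest in the library labelled WT female, WT male, KO female and KO male. The pools overlapped there after normalization (log2 fold change 0.04, edgeR adjusted p = 0.981). The only member on a U1 snRNA repeat, nearest to *Eapp*, held 32, 23, 62 and 59 reads, with a log2 fold change of −0.23 and an edgeR adjusted p of 0.911.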
